A study of Mus musculus with 8 samples.

Results

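The genes of the receptor system for calcitonin gene-related peptide (CGRP) and adrenomedullin were followed in cardiac reprogramming cultures: the receptor activity-modifying proteins Ramp1, Ramp2 and Ramp3, their partner receptor Calcrl, the ligand Adm and the atypical receptor Ackr3. These 6 genes, of 19572 transcript clusters with 1 gene symbol, were selected on the measured Ramp1 difference between cultures with and without an EP4 antagonist, so every value of the members in that comparison is a description and carries no test. Each of the 8 arrays holds RNA of mouse tail-tip fibroblasts taken after birth (TTFs), and every culture had been transduced with retroviruses for the cardiac factors Gata4, Hand2, Mef2c and Tbx5 (GHMT), so that untransduced cells were not among the groups. TTF set 1 held 4 arrays, for GHMT alone, GHMT with diclofenac, GHMT with the EP4 antagonist, and GHMT with diclofenac plus prostaglandin E2 (PGE2). TTF set 2 held the other 4, for GHMT alone, GHMT with the EP4 antagonist, GHMT with a TGFb inhibitor, and GHMT with a Wnt inhibitor. There were thus n = 2 arrays each for GHMT and for the EP4 antagonist, and 1 array for each of the other 4 conditions. Compounds, or the vehicle DMSO, were added together with the viruses. Apart from diclofenac and PGE2 the compounds are named only by target, and no dose, harvest time, mouse strain or exact age is stated in the labels. Viral transduction gives mixed cultures in which not every cell is reprogrammed, and in bulk RNA a larger number of cells of a type cannot be told apart from more RNA per cell.

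CALCRL is a class B G protein-coupled receptor that reaches the cell surface only together with a RAMP, and the RAMP sets its ligand: with RAMP1 it forms the CGRP receptor, and with RAMP2 or RAMP3 it forms adrenomedullin receptors. These receptors couple mainly to Gs and raise cAMP, as EP4, the PGE2 receptor blocked here, also does. CGRP is a vasodilator peptide of sensory nerves, adrenomedullin is a peptide secreted by many cells including cardiomyocytes and fibroblasts, and ACKR3 binds the chemokine CXCL12 and adrenomedullin and removes them without G protein signalling. Diclofenac inhibits the cyclooxygenases that make prostaglandins. By its title, the study dealt with cardiac reprogramming enhanced by blocking cyclooxygenase-2, PGE2 and EP4.

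The promoters of Ramp1, Adm and Ackr3, the 3 members that were above background in most arrays, are shown because their values differed from GHMT in different directions. Each window is the 250 bases before the annotated start, from RefSeq on GRCm38.p6, which matched 5 of the 6 members. Capitals mark, in Ramp1, an E-box match (bases -188 to -183 from the start) followed by a T-box match (bases -173 to -168, minus strand).
Ramp1 (chr1:91179572-91179821, plus strand): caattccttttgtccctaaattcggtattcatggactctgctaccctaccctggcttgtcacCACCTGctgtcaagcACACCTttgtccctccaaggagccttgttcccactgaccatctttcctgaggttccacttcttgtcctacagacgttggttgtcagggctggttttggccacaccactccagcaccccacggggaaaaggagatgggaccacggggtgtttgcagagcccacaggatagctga
Adm (chr7:110627407-110627656, plus strand): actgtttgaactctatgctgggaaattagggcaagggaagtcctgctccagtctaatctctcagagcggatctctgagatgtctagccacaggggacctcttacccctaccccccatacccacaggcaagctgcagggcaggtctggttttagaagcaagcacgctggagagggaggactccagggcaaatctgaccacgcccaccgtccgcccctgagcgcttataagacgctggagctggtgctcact
Ackr3 (chr1:90203730-90203979, plus strand): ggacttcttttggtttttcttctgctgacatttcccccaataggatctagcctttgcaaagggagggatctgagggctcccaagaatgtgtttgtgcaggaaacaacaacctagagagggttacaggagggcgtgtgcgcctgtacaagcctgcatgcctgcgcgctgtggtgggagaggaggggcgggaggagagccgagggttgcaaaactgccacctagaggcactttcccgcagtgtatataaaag
The search covered both strands. It used letters bound by Hand2-type factors (E-box, CANNTG), by T-box factors (AGGTGT) and by GATA factors (AGATAA), the MEF2 and CArG box consensus by name, the cAMP response element (TGACGTCA) with its shorter core (TGACG, which every full site contains), and the core of the hypoxia response element (ACGTG). The E-box reads the same on both strands. The Ramp1 window held the T-box letters, which 11.8% of the 32851 promoter windows hold, and the E-box letters, which 66.2% hold. Among the 5 members with a window, the T-box letters were in Ramp1 alone and the E-box letters were also in Ramp3. The cAMP response element (in 1.55% of all windows), its shorter core (17.8%), the hypoxia core (16.6%), the GATA letters (9.99%), MEF2 (2.92%) and the CArG box (1.47%) were in none of the 5 windows. A match is a description of the letters, and binding was not measured.

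The deposited values are log2 expression values of the array, on which a difference of 1 is 2-fold. Levels of different genes cannot be compared on this scale, since each transcript cluster has its own probes. As background, each array's 23 background probe sets were used: their 95th percentile lay between 5.73 and 5.99, and between 43.7% and 45.7% of the 22206 transcript clusters exceeded it. The TTF sets differed more than the treatments did (array correlations 0.986 to 0.995 within and 0.974 to 0.984 between sets), so differences are given within a set. All 7 measured fibroblast markers, Col1a1, Col1a2, Col3a1, Dcn, Lum, Thy1 and S100a4, were above background in all 8 arrays. Nothing in the labels says that the sets are separate animals or experiments, so the spread between them may be technical.

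**Figure D1:**
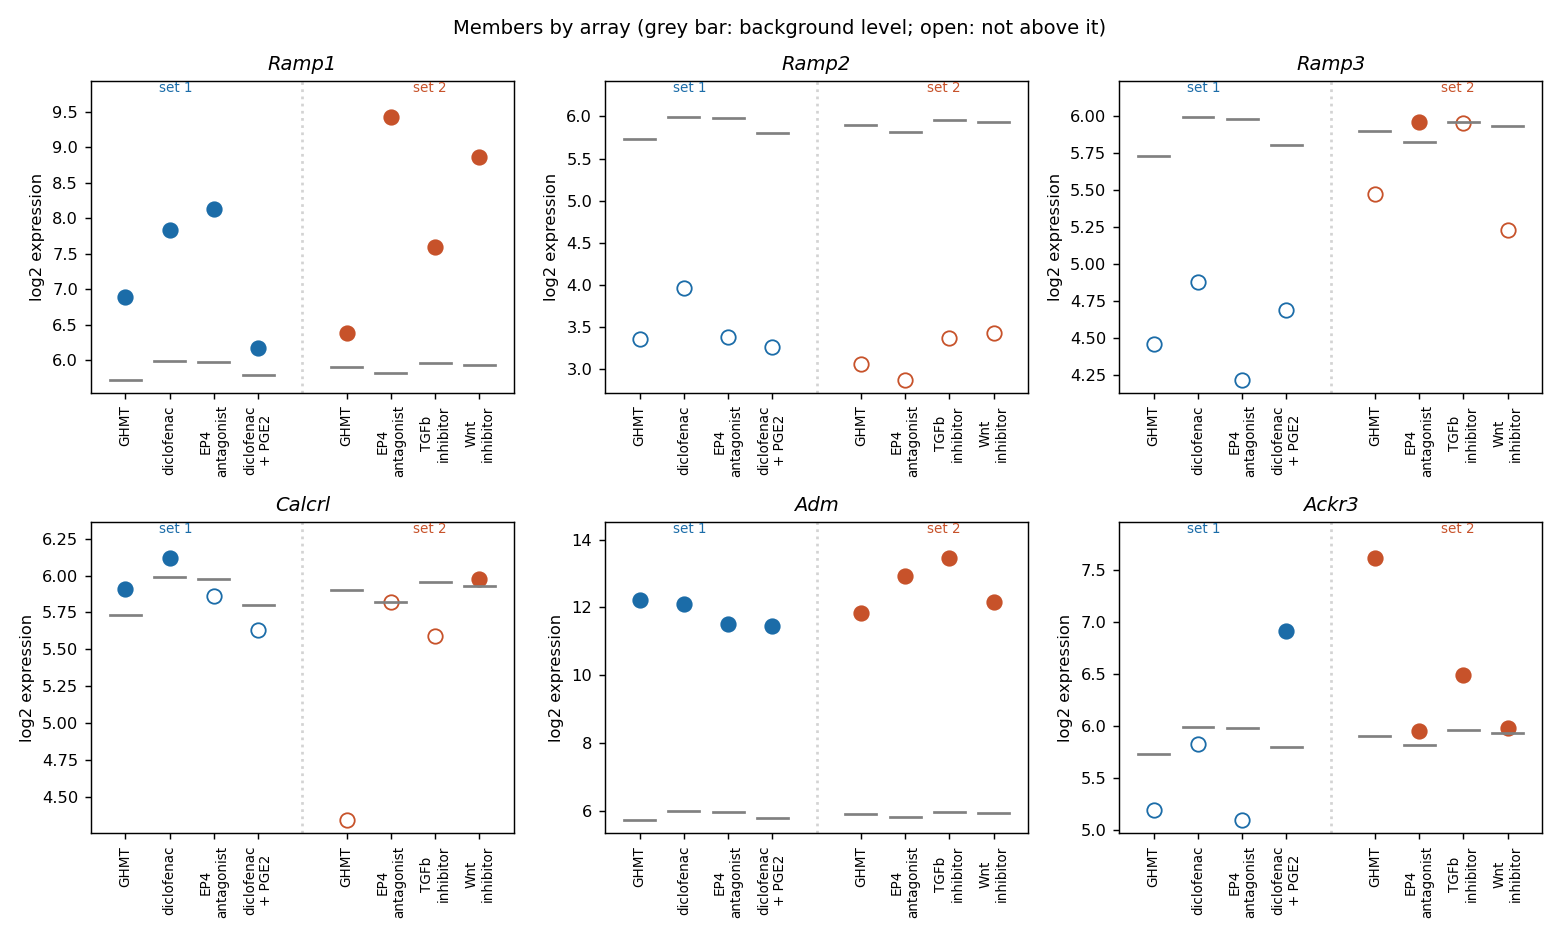
Log2 expression of the 6 members in each of the 8 arrays (x axis: condition, TTF set 1 in blue and set 2 in orange; each panel has its own y axis; each point is 1 array). Grey bars give the array's background level and open points lie at or under it: Ramp1 and Adm were above it in 8 of 8 arrays, Ackr3 in 5, Calcrl in 3, Ramp3 in 1 and Ramp2 in 0.

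Ramp1, the subunit that makes CALCRL a CGRP receptor, had its lowest values with GHMT alone or with PGE2 added and its highest with an inhibitor. In set 1 the log2 level of Ramp1 was 6.89 with GHMT alone, 7.84 with diclofenac, 8.13 with the EP4 antagonist and 6.18 with diclofenac plus PGE2. In set 2 it was 6.38 with GHMT alone, 9.42 with the EP4 antagonist, 7.59 with the TGFb inhibitor and 8.86 with the Wnt inhibitor. All 8 values lay above background, those of GHMT in set 2 and of diclofenac plus PGE2 by the smallest margins. The 5 arrays with an inhibitor and no added PGE2 were each above all 3 others. The GHMT and EP4 antagonist arrays among them are those that chose Ramp1. How many of all transcript clusters separate in this way was not counted, so the separation is a description only. The values come from 1 array per condition and set, so the order of neighbours within a set, such as diclofenac and the EP4 antagonist at 7.84 and 8.13, has no replicate spread to be set against. The only repeats across sets were GHMT, 0.51 lower in set 2, and the EP4 antagonist, 1.29 higher in set 2.

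With the EP4 antagonist Ramp1 was 2.36-fold higher than with GHMT alone in set 1 (log2 difference 1.24) and 8.22-fold higher in set 2 (3.04). The mean difference was 2.14 ± 0.42 (moderated standard error of the limma fit with the TTF set as a block, n = 2 pairs), or 4.41-fold. Moderation draws this error towards the spread of all transcript clusters, and the 2 set differences themselves had an SD of 1.27. GHMT arrays averaged 6.63 ± 0.36 and EP4 antagonist arrays 8.78 ± 0.91 (SD, n = 2 each). This is the value that chose the members and it is given with no test. In set 1, 68 of the 22206 transcript clusters had a difference at least as large in the same direction, and in set 2 only 4 did, Ramp1 included in both counts. The size of the difference thus differed between the sets, and whether it depended on the set was not tested.

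Calcrl, the receptor to which RAMPs bind, lay close to background throughout. Its log2 level in set 1 was 5.91 with GHMT alone, 6.12 with diclofenac, 5.86 with the EP4 antagonist and 5.63 with diclofenac plus PGE2. In set 2 it was 4.34 with GHMT alone, 5.82 with the EP4 antagonist, 5.59 with the TGFb inhibitor and 5.98 with the Wnt inhibitor. It was above background in GHMT and diclofenac of set 1 and with the Wnt inhibitor, and in those 3 arrays by a small margin. The GHMT array of set 2 stood apart below the other 7. The measured log2 differences from it were 1.48 with the EP4 antagonist, 1.25 with the TGFb inhibitor and 1.64 with the Wnt inhibitor. Since GHMT lay at background there, only the Wnt inhibitor gives a fold, at least 1.06-fold. With values under background set to the background level, the TGFb inhibitor difference was 0.07 and the Wnt inhibitor difference 0.08.

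Ramp2 and Ramp3, the subunits of the adrenomedullin receptors, gave little signal. Ramp2 was at background in all 8 arrays (2.88 to 3.97 on the log2 scale), so no fold is given for it. Ramp3 ranged from 4.22 to 5.96 and was above background only with the EP4 antagonist in set 2 (5.96, at least 1.05-fold over GHMT of that set). Its values in set 1 were 4.46 with GHMT alone, 4.88 with diclofenac, 4.22 with the EP4 antagonist and 4.69 with diclofenac plus PGE2. In set 2 they were 5.47 with GHMT alone, 5.95 with the TGFb inhibitor and 5.23 with the Wnt inhibitor. Of the 3 RAMP genes, Ramp1 was thus the one above background in all 8 arrays, and Ramp2 was above it in 0.

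Adm, the adrenomedullin precursor gene, was far above background in all 8 arrays and differed in direction between the sets. In set 1 its log2 level was 12.22 with GHMT alone, 12.09 with diclofenac, 11.52 with the EP4 antagonist and 11.45 with diclofenac plus PGE2. In set 2 it was 11.85 with GHMT alone, 12.92 with the EP4 antagonist, 13.46 with the TGFb inhibitor and 12.15 with the Wnt inhibitor. GHMT was the highest array of set 1 and the lowest of set 2. With the EP4 antagonist Adm was thus 1.62-fold lower than GHMT in set 1 (-0.70) and 2.10-fold higher in set 2 (1.07). The mean over both sets was 0.19 ± 0.41 (moderated standard error, n = 2 pairs). The 2 set differences themselves had an SD of 1.25, and the sets' difference was not tested. The largest difference of Adm from GHMT was that with the TGFb inhibitor, 3.05-fold higher.

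Ackr3, the scavenging receptor, had the reverse order to Ramp1 in the arrays of set 2, and in set 1 was highest in the array where Ramp1 was lowest. In set 1 its log2 level was 5.19 with GHMT alone, 5.83 with diclofenac and 5.09 with the EP4 antagonist, all at background, and 6.92 with diclofenac plus PGE2. In set 2 it was 7.62 with GHMT alone, 5.95 with the EP4 antagonist, 6.49 with the TGFb inhibitor and 5.98 with the Wnt inhibitor. The 2 highest arrays were GHMT of set 2 and diclofenac plus PGE2 of set 1. With the EP4 antagonist Ackr3 was 3.18-fold lower than GHMT in set 2 (-1.67), but in set 1 both arrays lay at background (-0.10) and give no fold. GHMT itself differed between the sets, with 7.62 in set 2 and a value at background in set 1. The values with the EP4 and Wnt inhibitors in set 2 lay so near background that a stricter background level, the 99th percentile, left Ackr3 above it in 3 arrays in place of 5.

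**Figure D2:**
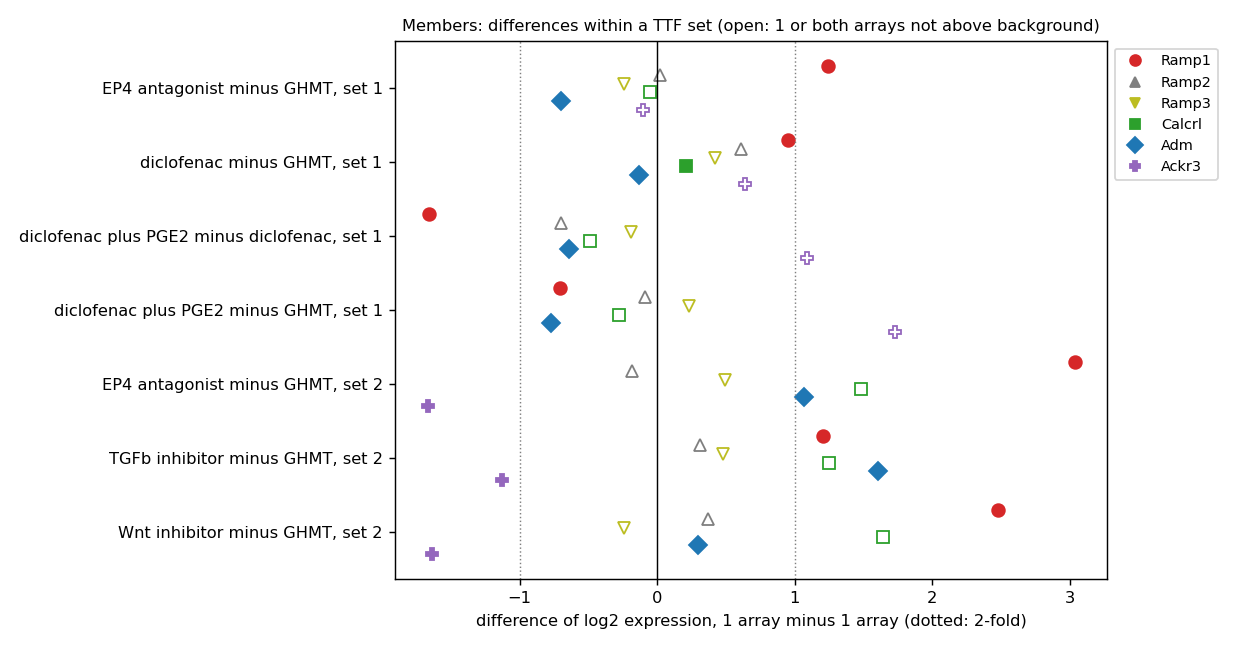
Difference of log2 expression between 1 array and 1 array of the same TTF set (x axis) for 7 comparisons (y axis), with a symbol for each of the 6 members and dotted lines at 2-fold; open symbols have 1 or both arrays at background. Ramp1 lay right of 0 for each inhibitor and left of 0 where PGE2 was added, from -1.66 to 3.04.

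Adding PGE2 to diclofenac (set 1) is the comparison that shares no array with the one that chose the members, and it asks whether PGE2 reverses what cyclooxygenase inhibition does. Ramp1 was 3.16-fold lower with PGE2 added than with diclofenac alone (-1.66), and 56 of the 22206 transcript clusters were as low or lower. Adm was 1.56-fold lower (-0.64). Ackr3 was higher by at least 1.90-fold (6.92 against a diclofenac array at background). Calcrl was lower by at least 1.25-fold, with the PGE2 array at background. Over the members, 1 of 6 was at least 2-fold lower, Ramp1, against 1.31% of all transcript clusters, and 1 of 6, Ackr3, had a measured difference past 2-fold upward, against 0.847%. That Ackr3 difference (1.09) is taken against an array at background, and its bound of 1.90-fold falls short of 2-fold. These are differences of 1 array against 1, and no test was run on them.

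Diclofenac alone was compared with GHMT in set 1, where both the diclofenac and the EP4 antagonist values rest on the same GHMT array. Ramp1 was 1.93-fold higher with diclofenac (0.95) and 2.36-fold higher with the EP4 antagonist. Of the members, 0 of 6 reached 2-fold with diclofenac, where 1.04% of all transcript clusters were that much higher and 0.766% that much lower. With the EP4 antagonist in set 1, 1 of 6 was at least 2-fold higher (0.815% of all) and 0 lower (0.784%). The higher member was Ramp1, whose difference in this comparison chose the members, so that count is no result about them. Diclofenac plus PGE2 against GHMT alone left Ramp1 1.64-fold lower (-0.71) and Adm 1.71-fold lower (-0.77), both short of 2-fold. Ackr3 was the 1 member at least 2-fold higher there (0.892% of all clusters) and none was 2-fold lower (0.923%). It was higher by at least 2.28-fold, with the GHMT array at background.

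In set 2 the EP4 antagonist, the TGFb inhibitor and the Wnt inhibitor were each compared with the same GHMT array, so an unusual value of that array enters all 3 comparisons. Ramp1 was 8.22-fold higher with the EP4 antagonist, 2.31-fold with the TGFb inhibitor (1.21) and 5.58-fold with the Wnt inhibitor (2.48). In these comparisons 4, 425 and 57 of all transcript clusters, Ramp1 included, had as large a difference or a larger one. Ackr3 was 3.18-fold, 2.19-fold and 3.12-fold lower in the same order. Adm was 2.10-fold, 3.05-fold and 1.23-fold higher. Members with a measured difference of at least 2-fold upward numbered 3, 3 and 2 of 6, where the shares of all clusters were 1.29%, 2.84% and 2.53%. Calcrl, whose GHMT array was at background, is in each count, and without it 2, 2 and 1 remain. Ramp1, for whose EP4 antagonist difference the members were chosen, is in each count as well. The GHMT array of set 2 also entered the comparison that chose them. The upward counts are therefore a description and no result about the members. Ackr3 alone was at least 2-fold lower in each, where the shares of all clusters were 1.45%, 2.52% and 1.57%.

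The broadest comparison pooled arrays by PGE2-EP4 signalling. Its inhibited arm held both EP4 antagonist arrays and the diclofenac array, and its active arm held the array of diclofenac plus PGE2 and both GHMT arrays, so that 4 of its 6 arrays also entered the comparison that chose the members. Ramp1 ranged from 7.84 to 9.42 in the inhibited arm and from 6.18 to 6.89 in the active arm, with no overlap. Such a gap in the same direction was found for 2.75% of all transcript clusters. The means were 8.46 ± 0.84 and 6.48 ± 0.37 (SD, n = 3 each), and the difference with the set as a block was 1.98 ± 0.31 (standard error), or 3.94-fold. The arms overlapped for the other 5 members. Ackr3 differed by -0.95 ± 0.41, Calcrl by 0.64 ± 0.25, Adm by 0.34 ± 0.28, Ramp2 by 0.18 ± 0.20 and Ramp3 by 0.15 ± 0.21. Leaving out either array of set 2 gave the same fit, since the block takes up the remaining array and only set 1 counts. The differences of Adm and Ramp3 were then -0.03. Over all 22206 transcript clusters limma called 0% in this comparison without the block, where 469 clusters had an unadjusted p under 0.05, and 0.378% once the block was included (84 clusters). Leaving out either array of set 2, which left the comparison within set 1 alone, reduced those 84 to 0. For the EP4 antagonist against GHMT it called 0% without the block (144 unadjusted) and 0% with it (1243 unadjusted). The rule for the members used these contrasts, so nothing is read from those shares about the members.

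The genes whose pattern was most like that of Ramp1 were sought over all 8 arrays among 2141 genes, on log2 values minus the mean of their TTF set. The 5 highest Pearson correlations were those of Chit1, a chitinase (r = 0.982), Cyth3, an exchange factor for ARF GTPases (0.976), Actc1, cardiac alpha-actin (0.957), Dmpk, a protein kinase of muscle (0.956), and Stc2, a secreted glycoprotein (0.951). The Spearman values were 0.952, 0.929, 0.762, 0.905 and 0.905 in the same order. Without the 2 arrays farthest from the median of Ramp1, GHMT and the EP4 antagonist of set 2, r was 0.970, 0.947, 0.981, 0.975 and 0.938. The set means subtracted there, and for the members below, were still taken over all 4 arrays of a set. The 2 arrays were thus not wholly left out. Chit1 was at background in 4 of the 8 arrays and entered only through arrays with an inhibitor. Its log2 levels in set 2 were 4.99 with GHMT alone, 7.05 with the EP4 antagonist, 6.10 with the TGFb inhibitor and 6.85 with the Wnt inhibitor. In set 1 it was above background only with the EP4 antagonist (6.14). GHMT alone (4.95), diclofenac (5.57) and diclofenac plus PGE2 (4.56) were at background there. Actc1 was at 12.72 with GHMT alone, 14.37 with diclofenac, 14.36 with the EP4 antagonist and 11.67 with diclofenac plus PGE2 in set 1, the same order of GHMT and diclofenac plus PGE2 below the rest as for Ramp1. The most opposite patterns were those of Mcpt8, a basophil protease (-0.962), Cxcl14, a chemokine (-0.962), and Il33, a cytokine (-0.951). They rest in part on values at background. Il33 was at background with diclofenac, the Wnt inhibitor and both EP4 antagonist arrays, and entered only through arrays where Ramp1 was lower. In set 1 Mcpt8 and Cxcl14 were at background with diclofenac and the EP4 antagonist, and Cxcl14 also with GHMT alone. Among the members, Ackr3 had r = -0.826 (-0.712 without those 2 arrays) and Adm r = 0.266 (-0.303 without them). The other 3 members were at background in too many arrays to enter. These correlations rank genes picked out of 2141 over 8 arrays that share GHMT controls within each set, and they are given as a description.

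**Figure D3:**
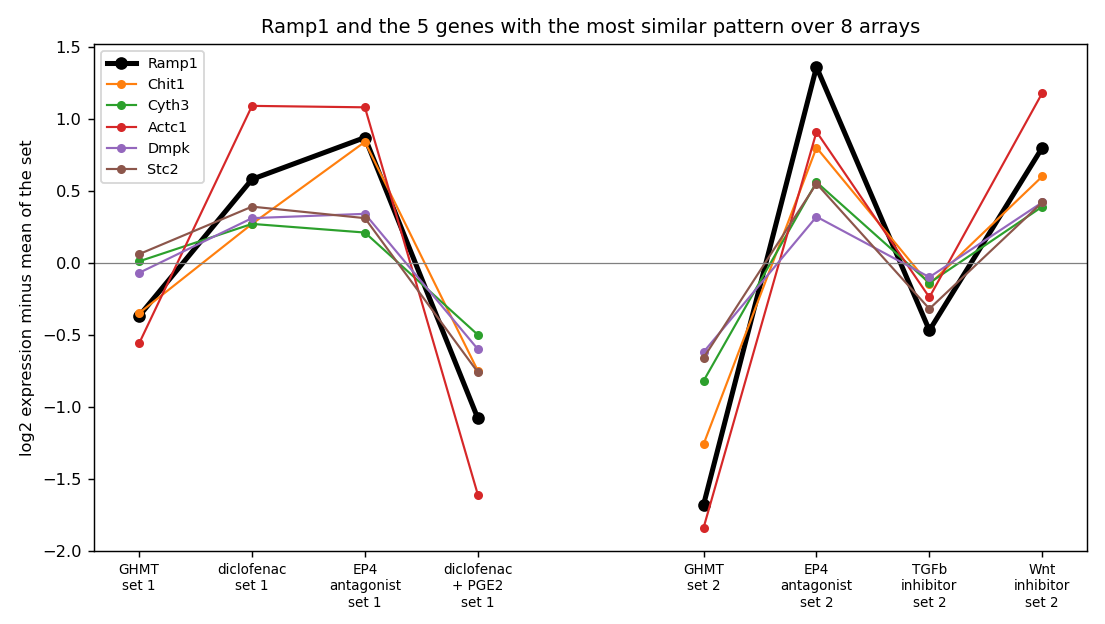
Log2 expression minus the mean of the TTF set (y axis) in each of the 8 arrays (x axis) for Ramp1 (thick black line) and the 5 genes with the highest Pearson r with it; lines join the arrays of a set and do not mark an order. In each set all 6 genes were lowest with GHMT alone or with diclofenac plus PGE2, and Dmpk and Cyth3 varied less than Ramp1 and Actc1.

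Around the members, 84 genes of 7 fixed lists were followed: other ligands and receptors of the family, other class B receptors, Gs with adenylyl cyclases and protein kinase A, arrestins with receptor kinases, peptide-processing enzymes, the CXCL12 axis, and genes of hypoxia, under which Adm is known to be induced. Of these, 76 were measured and 50 were above background in at least 1 array. In the tests of the EP4 antagonist and of inhibited against active signalling, 0 of the 76 passed at an adjusted p under 0.05 by limma, with or without the block. Before adjustment, those with p under 0.05 numbered 1 of 76 for the EP4 antagonist (12 with the block) and 6 for the inhibited arm (15 with the block). Over all transcript clusters the shares were 0.648% (5.60% with the block) and 2.11% (8.67%, or 1925 clusters, with the block). The median difference for the EP4 antagonist was -0.04 in set 1 and -0.16 in set 2, where it was -0.01 over all transcript clusters in both.

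Among the enzymes of peptide processing, Pam had the largest mean difference with the EP4 antagonist. Pam, which amidates the ends of CGRP and adrenomedullin, a step both need for activity, had log2 levels of 15.47 with GHMT alone, 15.98 with diclofenac, 16.30 with the EP4 antagonist and 14.67 with diclofenac plus PGE2 in set 1. In set 2 it had 14.16 with GHMT alone, 15.12 with the EP4 antagonist, 15.65 with the TGFb inhibitor and 16.00 with the Wnt inhibitor. As for Ramp1, the arrays with an inhibitor and no PGE2 were the highest of each set. Pam was higher by 0.90 ± 0.20 with the EP4 antagonist (standard error with the block) and by 1.03 ± 0.22 in the inhibited arm, where limma gave an adjusted p of 0.103 (0.0213 to 1 over 20 settings), so it did not pass. It passed without GHMT replicate 1, with the block. Of the 9 measured genes of this list, Pcsk5, a proprotein convertase, was at -0.64 ± 0.32 for the EP4 antagonist, Ece1, which cleaves CGRP in endosomes, at -0.28, and Cpe, a carboxypeptidase that trims peptide precursors, at 0.13. Mme, the neprilysin that degrades both peptides, was picked out after its values were seen: it was higher by 2.32 with the Wnt inhibitor and by 1.37 with the TGFb inhibitor.

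On the CXCL12 and ACKR3 axis, 3 of 7 measured genes were above background in some array, and the receptors Cxcr4 and Cxcr3 were not. Penk, the precursor of the enkephalin peptides that ACKR3 also binds, had 10.26 with GHMT alone, 11.10 with diclofenac, 10.79 with the EP4 antagonist and 9.17 with diclofenac plus PGE2 in set 1. In set 2 it had 10.07 with GHMT alone, 11.28 with the EP4 antagonist, 12.51 with the TGFb inhibitor and 11.73 with the Wnt inhibitor, again with GHMT lowest. Its difference in the inhibited arm was 1.22 ± 0.25 (limma adjusted p = 0.103 with the block, 0.00876 to 1 over 20 settings), and it too passed only without GHMT replicate 1, with the block. Cxcl12, the chemokine ligand, hardly differed with the EP4 antagonist (0.07 and 0.00), was 1.07 lower when PGE2 joined diclofenac, and was 2.40 higher with the Wnt inhibitor. Mif, a cytokine that also binds ACKR3, was at -0.13 for the EP4 antagonist.

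Of the family itself, 5 of 6 further genes were measured and 4 of these, Calcb, Adm2, Iapp and Calcr, were at background in all 8 arrays. The gene not measured was Calca, a precursor gene of CGRP, so the values do not show whether CGRP was transcribed. Crcp, a small protein that aids coupling of the CGRP receptor, ranged from 7.06 to 8.19 and differed by 0.73 in set 1 and -0.18 in set 2 with the EP4 antagonist. Of 11 class B and RAMP partner receptors 9 were at background throughout, Pth1r, the parathyroid hormone receptor, was at -0.12, and Adcyap1r1, the receptor for PACAP, was above background only with the TGFb inhibitor. Among 18 genes from Gs to protein kinase A, the adenylyl cyclases Adcy2 and Adcy7 were at -0.94 ± 0.34 and 0.45 ± 0.23 with the EP4 antagonist (standard error), and the kinase subunits Prkar2b and Prkaca at 0.32 and 0.30. Prkar2b differed in direction between the sets (-0.48 in set 1 and 1.12 in set 2), and Adcy7 was at background with GHMT alone in set 1 (5.37). Adcy2 was at 9.23 with GHMT alone in set 2 and at 7.63 with the EP4 antagonist there, while set 1 had 7.37 and 7.10. Among 9 genes of receptor desensitisation and trafficking, the receptor kinases Grk5 and Grk4 were at -0.72 ± 0.25 and 0.50 ± 0.20, and the GTPases Rab11a and Rab4a at -0.40 and 0.27. Rab4a was at 0.71 in set 1 and -0.17 in set 2. Of 17 HIF and hypoxia genes, 15 had a negative mean difference with the EP4 antagonist (median -0.30), where 11335 of all 22206 transcript clusters did. Of the 17, 2 were at background in all 8 arrays, Ca9 (-0.60, among the 15) and Epas1 (0.18). Among the 15 were Pdk1, a kinase that holds back pyruvate oxidation (-0.71 ± 0.20), and Bnip3, a mitophagy receptor (-0.64 ± 0.21). Arnt, the partner of the HIF alpha subunits (-0.61 ± 0.24), and Vegfa, an angiogenic factor (-0.51 ± 0.20), were also among them. By limma 0 of 17 passed. An unadjusted p under 0.05 was found for 5 in the fit with the block, where 5.60% of all clusters had one, and for 0 without it.

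**Figure D4:**
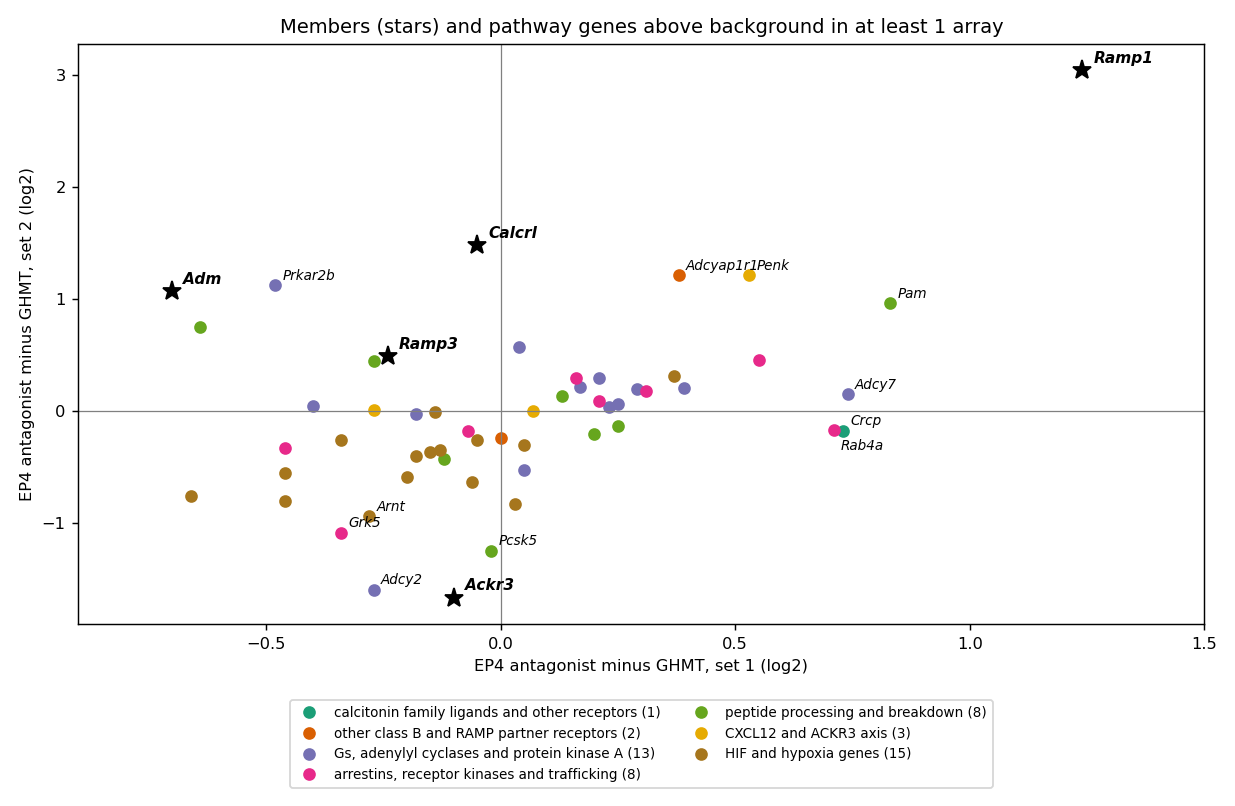
Difference EP4 antagonist minus GHMT in TTF set 1 (x axis) and set 2 (y axis), both on the log2 scale, for the 50 pathway genes above background in at least 1 array (points coloured by list, with the number of genes) and 5 members (black stars). Ramp1, for whose difference in this comparison the members were chosen, lies at 1.24 and 3.04, so its place beyond all 50 pathway genes is no result. Adm lies at -0.70 and 1.07.

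Markers of other cell types were measured beside the members. For the endothelium, where Calcrl, Ramp2 and Ackr3 are known to be expressed, 12 of 13 measured markers were at background in all 8 arrays, Pecam1 and Cdh5 among them, and the 1 exception, Esam, was above it in 1 array. The summed linear signal of these 13 was 266 in set 1 and 209 in set 2 with GHMT alone, and 284 and 190 with the EP4 antagonist. All 5 leukocyte markers were at background, and 1 of 4 Schwann and neural markers, Tubb3, was above it. Smooth muscle, where Ramp1 is known to be expressed, had 8 of 10 markers above background in at least 1 array. Their summed signal was 540561 in set 1 and 378707 in set 2 with GHMT alone, and 591042 and 456828 with the EP4 antagonist, most of it from Acta2 (18.32 to 19.12). Their mean log2 level was 9.24 and 9.27 with GHMT alone and 9.49 and 9.70 with the EP4 antagonist. With the EP4 antagonist 8 of the 10 were higher and 2 lower in each set, Mylk being lower in both (-0.45 and -0.03). Myh11, the smooth muscle myosin, was higher by 0.57 and 0.78 but was at -0.32 with diclofenac. Myocd passed in the inhibited arm with the block (1.48 ± 0.18, limma adjusted p = 0.0186, 0.00354 to 1 over 19 settings), though it was under background in every array. Fibroblast markers were lower with the EP4 antagonist in 7 of 7 cases in set 1 and 5 of 7 in set 2, and their summed signal was 492515 and 260949 with GHMT alone against 285286 and 191920. Of the 8 cardiac muscle markers, 8 were higher with the EP4 antagonist in both sets. Their summed signal, to which Tnnt2 (17.25 to 18.07) gave most, was 204768 and 216580 with GHMT alone, 329920 and 350589 with the EP4 antagonist, 343054 with diclofenac, 278445 with diclofenac plus PGE2, 352141 with the TGFb inhibitor and 416512 with the Wnt inhibitor. Their mean log2 level, in which each marker counts alike, was 11.32 with GHMT alone, 13.14 with diclofenac, 12.67 with the EP4 antagonist and 11.04 with diclofenac plus PGE2 in set 1. The set 2 means were 10.80 with GHMT alone, 12.35 with the EP4 antagonist, 12.18 with the TGFb inhibitor and 12.67 with the Wnt inhibitor. For diclofenac plus PGE2 against GHMT, where Ramp1 was lower, the sum was thus higher and the mean lower, with 3 markers higher (Nppa, Myl4 and Tnnt2) and 5 lower. With the TGFb inhibitor, where Ramp1 was higher, 7 of 8 were higher and Myl4 was at -1.20. With the block, 5 of the 8 rose in the inhibited arm by limma, where 57 of all 22206 clusters did. Without the block 0 rose, and 5 had an unadjusted p under 0.05, where 2.11% of all clusters had one. With the block, leaving out GHMT or the EP4 antagonist of set 2 left the comparison within set 1 alone, and 0 clusters passed at all. The 5 that rose were Actc1 (2.36 ± 0.26), Myh6 (2.99 ± 0.38), Myl7 (2.17 ± 0.28), Myl4 (1.34 ± 0.19) and Smyd1 (2.18 ± 0.27), on the log2 scale. The part of these markers in the Ramp1 values was not tested.

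Ramp1 and Ackr3 lie near each other on mouse chromosome 1, with 22 genes between them in the reference gene table, and their neighbours were read for the same arrays. Of the 28 genes between them or within 3 genes on the outer sides, 10 were measured and 7 were above background in at least 1 array. None of the 10 was 2-fold apart from GHMT with the EP4 antagonist in either set or with the Wnt inhibitor. Lrrfip1, a transcriptional repressor, was at 0.34 and 0.21 with the EP4 antagonist, and Col6a3, a collagen VI chain, at -0.73 and 0.36. Cops8, a subunit of the COP9 signalosome, was at 0.21 and 0.09, and Ube2f, a NEDD8-conjugating enzyme next to Ramp1, at -0.01 and 0.25.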

How the data were processed

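RNA of 8 mouse cultures was hybridised to Clariom S arrays. Per the submitters' design text, the deposited log2 values were made by the authors with SST-RMA in Affymetrix Expression Console 1.4; the labels do not say whether both TTF sets were normalized together, and name no genome build or filter. The 22206 transcript clusters were kept and the 6640 control probe sets left out. Of the clusters, 19572 have 1 gene symbol in the platform annotation; each member is on 1 cluster. Groups follow the titles. The members and lists were chosen with earlier results of these data known. Tests used limma 3.58.1 in R 4.3.3 (two-sided, Benjamini-Hochberg adjusted over all clusters), without the TTF set as the main design and with it as a block; titles number the fibroblasts by set, and deviations of same-numbered GHMT and EP4 antagonist arrays correlated (r = 0.724). All standard errors are limma's moderated ones from fits with the block, which draw on the spread of all clusters. For a single gene they can understate the spread between the sets. The fits were tested on simulated data. Where the lower array was at background, a fold is a lower bound against the higher of that array's value and its background level (95th percentile of 23 probe sets). Named pathway genes are up to 4 per list with the largest mean EP4 antagonist difference, above background in at least 1 array. Genes like Ramp1 had to be above background in at least 4 arrays with a range of at least 1. Alternatives were quantile normalization, centring, a background floor, a filter on dim clusters, another prior, and leaving arrays out. The number of arrays limits the precision.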

Additional observations from a re-analysis of the deposited data

Results flagged for a closer look

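Adm was picked out because its EP4 antagonist difference had opposite directions in the 2 TTF sets, -0.70 in set 1 and 1.07 in set 2, which are 1.77 apart on the log2 scale. Each set has 1 array per condition, so the difference between the sets was not tested.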

How the results depend on the processing

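Differences of Ramp1 and Ackr3 kept their direction under all 31 alternatives each. Over the 6 members 181 of 186 alternative differences stayed within the spread used to judge them (between sets, or residual in the blocked fit). The other 5, of Ramp2 and Calcrl, moved when values under background were set to its level. Part of the 181 was fixed in advance. Leaving out a set cannot move an EP4 antagonist difference past the spread between the sets, and dropping the block leaves these balanced estimates unchanged. The sign turned in 12 of the 186, 4 each for Ramp2 and Ramp3, 3 for Adm and 1 for Calcrl. For Adm and Ramp3 the inhibited-arm difference turned without GHMT and without the EP4 antagonist of set 2, the same fit counted separately. Without set 2 the EP4 antagonist difference turned for Adm (0.19 to -0.70), Calcrl (0.71 to -0.05), Ramp3 (0.12 to -0.24) and Ramp2 (-0.08 to 0.02). Leaving out a set gave 1.24 and 3.04 for Ramp1 with the EP4 antagonist. The counts of transcript clusters past the threshold were less stable. For the EP4 antagonist against GHMT the count was 0; with the replicate block it stayed 0, with the block and quantile normalization together it was 31, and with an array left out, without the block, it ran from 1 to 25, where 1 arm holds both sets and the other only 1. For inhibited against active signalling it was 0 without and 84 with the replicate block, and 78 with the block and quantile normalization. With an array left out it ran from 0 to 3 without the block, 3 without GHMT replicate 1. With the block it was 192 without GHMT replicate 1, 17 without diclofenac plus PGE2, 4 without EP4 antagonist replicate 1 and 2 without the diclofenac array. With the block, leaving out GHMT or the EP4 antagonist of set 2 is the same fit within set 1, and gave 0. Leaving out an array with the block could not be run for the EP4 antagonist alone, since no residual degrees of freedom remain. No member is on several clusters, so the choice of cluster had no alternative. With the 90th and the 99th percentile as background, Calcrl was above it in 5 and 2 arrays and Ramp3 in 2 and 0, while Ramp1 and Adm stayed above it in 8. The likeness of Actc1 to Ramp1 was 0.762 by Spearman's rho.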
